A study of Mus musculus with 12 samples.

Results

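The genes described here read lower on inflammatory activated arrays of BV2 cells than without activation, and lower again with the compound coded E29. They were chosen as probes by 2 conditions on the authors' processed intensities, each raised to at least 50 and taken as log2. The median of the 11 activated arrays (all compounds included) had to lie at least 1 log2 unit (2-fold) below the non-activated array. The E29 array had to lie at least 1.5-fold below the activated control. Of 25697 probes, 102 met both conditions, and 11072 probes read above 50 on at least 1 array. The 102 probes included 98 with a gene name, which stood for 92 genes, and 4 without one. Since the rule used the non-activated, activated control and E29 arrays directly, the differences between those arrays are given below as descriptions, with no test.

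BV2 is an immortalised mouse line derived from microglia, the resident macrophages of the brain, and it serves as a single-line model of them. The 12 arrays held 1 array per condition, so no value has a replicate and no test between conditions was possible. The non-activated control received neither stimulus nor compound. The activated control received lipopolysaccharide (LPS, a bacterial outer membrane component that signals through Toll-like receptor 4) at 1 µg/ml and interferon-γ at 10 ng/ml. The 10 further cultures had the same stimuli plus 1 compound each, for 4 h. The compounds are known by code, E29 and E33 being those named most below, and the others E4, E14, E18, E21 and E23 together with E5, E19 and E20. Neither structure nor dose was known here for any of them. With whole-culture RNA, fewer cells expressing a gene and less RNA per cell cannot be told apart.

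When macrophages meet LPS and interferon-γ, they switch on cytokine, chemokine and interferon response genes. In the same hours they switch off many genes of the resting state, among them receptors, ion channels, transporters and genes of growth and division. Histone transcripts are a special class: the replication-dependent histone genes lie in clusters, carry no introns and are mostly expressed during DNA synthesis, and their messages usually end in a stem-loop and not in a poly(A) tail.

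The arrays were similar in brightness. Median scanner signals were 115 to 125, and 8538 to 9493 probes per array were detected (detection p-value under 0.01). Of the cell type marker lists, those for neurons, astrocytes, fibroblasts and T or B cells had no probe above 50, the oligodendrocyte list had 4 probes (of Cnp and Mog) and the endothelial list had 1 (of Vwf). The macrophage or microglia list had 17 of its 18 probes above 50, covering 11 genes that included Itgam, Ptprc, Cx3cr1, Spi1 and Tyrobp.

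Activation lowered 654 probes by the 2-fold rule, 5.91% of the 11072 probes above the floor, and the 102 members were 15.6% of these. E29 read at least 1.5-fold below the activated control for 1828 probes (16.5%) and at least 1.5-fold above it for 1841 (16.6%), so the members were 5.58% of its lower probes. Among the 654 activation-repressed probes, 174 (26.6%) went the other way and read at least 1.5-fold higher with E29, and 378 lay between the limits. The members' median difference was -1.29 log2 with activation and -1.05 log2 between E29 and the activated control. For the activated control alone, the members' median against the non-activated array was -1.19 log2. By that measure 96 members were at least 1.5-fold lower, beside 18.1% of all probes above the floor. Against the non-activated array, the E29 array was lower by a median of 2.33 log2 units over the 102 members and by 1.13 over the 552 other activation-repressed probes. The 2 sets were divided by the E29 limit, so the rule fixed much of this gap. On values raised to 50, E29 was at least 2-fold below the activated control for 52 members (8.72% of all probes above the floor reached that).

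The members were moderately bright before activation. Their non-activated intensities ran from 108 to 9710, with a median of 574, beside a median of 304 for the other activation-repressed probes. The median over members was 195 on the activated control and 81.4 on the E29 array. All 102 members were detected on both control arrays and 94 to 101 on each of the 9 other compound arrays. On the E29 array 57 were detected and 45 were not, including 33 that read below 50 and 5 at the authors' lowest value of 10. For an undetected probe the fold is a bound, computed against the lowest detected E29 intensity of 65.1 or the probe's own value where that was higher, and written as "at least". The bound reached 1.5-fold for 26 of the 45 and 2-fold for 16. Counted that way, 46 members were resolved as at least 2-fold lower with E29 and 6 as at least 4-fold lower. All other counts of probes past a limit use values raised to 50, as the rule did. For the other 19 it was under 1.5-fold, so the array did not resolve how far they dropped.

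The non-activated array was above all 11 activated arrays for 99 of the members, where 27.1% of all probes above the floor had that order. The E29 array was below all 11 other arrays for 86 members, beside 17.0% of all probes, and for 53 it was at least 1.5-fold below every one of them (47 counted with the bounds). The rule fixed much of both orders. The 3 members whose non-activated value was not the highest were Slc40a1, 1 probe without a gene name and Stimate.

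The replication-dependent histone H2A genes formed the most uniform group. H2A is 1 of the 4 core histones around which DNA is wound, and the module held 6 of its genes, H2ac7, H2ac10, H2ac12, H2ac15, H2ac22 and H2ac24. For each, the median of the activated arrays was 2.04-fold to 2.38-fold below the non-activated array. E29 was 2.78-fold to 3.87-fold below the activated control, and all 6 stayed detected on the E29 array. Upstream of such genes, textbook promoters carry CCAAT boxes (bound by NF-Y), TATA boxes and, in some, E2F sites. The 300-base promoter windows of 3 of them are shown because each faces an H2B gene whose probe read differently on the same array. The windows come from RefSeq on build GRCm38.p6, run from 250 bases before to 50 bases from the start of transcription, and are written 5′ to 3′ on the gene's own strand. Capitals mark matches on either strand to the CCAAT letters, to the TATA box written as TATAAA, or to the E2F site written as TTTCGCGC. H2ac7 lies on the plus strand at chr13:23574131-23574430, H2ac12 on the minus strand at chr13:22035594-22035893 and H2ac15 on the minus strand at chr13:21753863-21754162.
H2ac7: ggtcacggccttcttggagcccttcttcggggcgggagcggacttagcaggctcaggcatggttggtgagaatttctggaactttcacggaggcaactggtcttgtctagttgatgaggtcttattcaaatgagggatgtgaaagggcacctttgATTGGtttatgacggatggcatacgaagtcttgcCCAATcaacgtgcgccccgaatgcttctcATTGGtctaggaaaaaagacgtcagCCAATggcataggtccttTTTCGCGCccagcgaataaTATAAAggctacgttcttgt
H2ac12: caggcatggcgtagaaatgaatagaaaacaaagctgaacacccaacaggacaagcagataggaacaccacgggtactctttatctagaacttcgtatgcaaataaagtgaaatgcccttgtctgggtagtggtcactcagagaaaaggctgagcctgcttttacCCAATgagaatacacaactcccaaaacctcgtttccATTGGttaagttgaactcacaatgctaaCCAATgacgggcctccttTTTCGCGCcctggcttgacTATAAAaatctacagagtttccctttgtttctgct
H2ac15: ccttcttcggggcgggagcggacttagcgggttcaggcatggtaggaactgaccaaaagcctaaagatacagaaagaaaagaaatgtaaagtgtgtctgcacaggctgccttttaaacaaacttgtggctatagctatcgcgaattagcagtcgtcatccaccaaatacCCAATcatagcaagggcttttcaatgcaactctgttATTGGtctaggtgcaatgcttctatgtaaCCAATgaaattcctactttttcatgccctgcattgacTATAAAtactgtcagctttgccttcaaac
The H2ac7 window held 4 CCAAT matches, 1 TATAAA and 1 E2F match, the H2ac12 window 3, 1 and 1, and the H2ac15 window 3, 1 and 0. In all 3 windows TATAAA lay in the last 50 bases, after the annotated start of transcription and not upstream of it. The E2F match of H2ac7 also lay after that start, and that of H2ac12 spanned it. Whether the annotated starts are the true ones was not tested. CCAAT stood in the windows of all 6 member H2A genes, of the 6 other H2A genes above the floor and of the 9 H2B genes with a window, against 41.1% of 27025 genes. TATAAA stood in 4 of the 6 member windows (15.7% of all genes) and the E2F letters in 4 (0.374%). The E2F letters were also in 1 of the 6 other H2A windows and in 3 of the 9 H2B windows. These are matches of letters, not measured binding.

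H2ac7 read 3800.4 on the non-activated array, 1962 on the activated control, 1368 to 2111 with the 9 other compounds (median 1745) and 507 with E29. The E29 value stood alone, 2.70-fold below the lowest of the other 11 arrays. H2ac24, the brightest member, read 9710 non-activated, 4776 activated, 3886 to 5999 with the other compounds (median 4756) and 1537 with E29. H2ac15 read 3263, 1558, 1104 to 1963 (median 1434) and 439 in the same order. In all 6 H2A probes E4 was the lowest and E33 the highest of the 9 other compounds. Across the 12 arrays their log2 intensities correlated with each other at r = 0.985 to 0.997 (15 pairs of probes). The rule fixed part of this, because these arrays include the non-activated, activated control and E29 arrays on which members were chosen. H2A genes are near-identical in coding sequence and one probe may read several of them, so the 6 probes cannot be taken as 6 separate genes. How much of their signal came from the minor polyadenylated forms was not measured.

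Other histone families did not share the pattern (these families were assembled after values were seen). Of 12 replication-dependent H2A probes above the floor, 9 were at least 1.5-fold lower with E29 and 2 were higher. Their median difference was -1.55 log2. Of all probes above the floor, 16.5% were that much lower with E29 and 16.6% that much higher. H2ac11, undetected with E29 and at least 3.86-fold lower there, missed the module only through its activation difference of -0.86 log2. H2ac20 (-0.83) and H2ac21 (-0.94) were lower in E29 too, while 2 dim probes were higher: H2ac6 read 10 on the activated control and 178 with E29, and H2ac8 67.7 and 188. None of 11 H2B probes was lower with E29, and 5 were at least 1.5-fold higher, with a median difference of 0.58. The H2B median was 0.26 when E29 was set against the median of the 9 other compounds, since the activated control read low for H2B by a median of 0.32. By that measure 2 of the 11 H2B probes were at least 1.5-fold higher, beside 15.1% of all probes above the floor. H3 probes were higher in 9 of 10 cases (median 0.92), and H4 probes in 6 of 7 (median 1.69). The H2A variants H2ax, H2aj and H2az1 stayed within 1.5-fold.

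The H2A and H2B probes also differed between genes that face each other. Since one probe may read several H2A genes, the values below belong to probes and may not be those of the single genes named. Whether the H2B probes read single genes was not checked. On chromosome 13, H2A and H2B genes often stand head to head, and 5 such pairs with annotated starts within 300 bp had both genes above the floor. H2ac7 and H2bc7 start 174 bp apart, and E29 minus the activated control was -1.95 log2 for the H2A probe and 0.37 for the H2B probe. H2bc7 read 1771 non-activated, 1918 activated, 1906 to 2531 with the other compounds and 2479 with E29, so its E29 value lay within the range of the others. H2ac12 and H2bc12, 178 bp apart, differed by -1.63 and 0.69, and H2ac15 and H2bc15, 164 bp apart, by -1.83 and 0.80. H2ac11 and H2bc11 start 249 bp apart, and H2bc11 differed by 0.56. For H2bc12, H2bc15 and H2bc11 the activated control was the lowest of the 12 arrays, and against the median of the 9 other compounds their E29 differences were 0.41, 0.26 and 0.27. The E29 values of H2bc15 and H2bc11 lay within the range of those compounds. The fifth pair, H2ac8 and H2bc8, had both values above 0, at 1.47 and 0.86.

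Channels and transporters included Kcnk13 and Slc40a1, both more than 4-fold below the activated control with E29. Kcnk13 encodes THIK-1, a potassium channel that sets the resting membrane potential of microglia. It read 1024 non-activated and 273 activated, 246 to 621 with the other compounds (median 305), and 47.6 with E29, where it was not detected. Its E29 level was at least 4.19-fold below the activated control. Kcnk6, another 2-pore potassium channel, was a member through 2 probes, the brighter of which read 935, 417, 274 to 417 (median 385) and 243 in the same order. No other gene of that channel family read above the floor. Tpcn2, a cation channel of lysosomes, read 443 non-activated, 203 activated and 33.5, undetected, with E29, at least 3.12-fold lower. Kcnj2, an inward rectifier potassium channel, was dim throughout (108 non-activated, 81.2 activated, 41.6 with E29) and its E29 value was within the range of the other compounds, 41.0 to 82.8.

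Slc40a1 encodes ferroportin, the exporter that releases iron from macrophages. Its intensity was 4268 non-activated and 1938 activated, and with E29 it was 416, 4.66-fold below the activated control. The other compounds spread widely, from 959 with E33 to 4578 with E19, with a median of 2139. E5, E19 and E20 read 3995, 4578 and 4160.4, near or above the non-activated level, while E33 and E29 were the lowest pair. Slc25a45, a mitochondrial carrier, and Slc35c1, the Golgi GDP-fucose transporter, were 1.93-fold and 1.57-fold lower with E29. A second Slc35c1 probe outside the module, detected on all 12 arrays, was 1.26-fold lower (143 against 179.5).

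Receptors and adaptors of innate immunity gave 12 member probes of 10 genes. Tlr13 detects bacterial ribosomal RNA in endosomes, and both of its probes were members. The brighter read 1839 non-activated, 292 activated, 126 to 486 with the other compounds (median 243) and 97.4 with E29. For it the median of the activated arrays was 7.56-fold below the non-activated array, and E29 was 2.99-fold below the activated control. Against the non-activated array E29 was 18.9-fold lower. The second probe read 601, 88.8, 49.04 to 188 and 13.9, undetected with E29, at least 1.36-fold lower. Tlr4, the LPS receptor itself, read 232 non-activated, 76.3 activated and 37.3 to 116 with the other compounds. It was at the authors' lowest value of 10 with E29 (at least 1.17-fold lower). E18 and E20 also read under 50 for Tlr4 (37.3 and 42.2), and its probe was detected on 7 arrays. Tlr1, the TLR2 partner for bacterial lipopeptides, read 135, 117, 38.6 to 88.9 (median 66.5) and 28.4, undetected with E29, at least 1.79-fold below the activated control. Its activated control value was above those of all 10 compounds, and the median of the 9 others was close to the lowest detected E29 intensity. Of 7 Toll-like receptor probes above the floor, 6 passed the E29 limit on values raised to 50 (16.5% of all probes did) and 4 were members. For 2 of the 6 the bound was under 1.5-fold, and against the median of the 9 other compounds 3 of the 7 passed. Tlr2 and Tlr7, the lower probes outside the module, were not lowered by activation.

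Nrros encodes a membrane protein that holds latent TGF-β1 on microglia. It read 2577 non-activated, 790.0 activated, 438 to 930.1 with the other compounds (median 574) and 182 with E29, 4.34-fold below the control. The E29 value was also 2.41-fold below E19, the lowest of the others. Tab1, the TAB1 subunit of the TAK1 kinase complex that relays Toll-like receptor and cytokine signals, read 998, 410.1, 339 to 650.3 and 113, a 3.64-fold difference. Its second, dimmer probe was at 10 with E29 (at least 1.36-fold). Gpr65, a proton-sensing G protein-coupled receptor, had the deepest activation drop, 8.68-fold from 673 to a median activated value of 77.6, and it was 15.3 with E29 and undetected. It was at least 1.36-fold below the activated control there, and E19 and E20 also read under 50 (41.5 and 37.2). Samsn1, an adaptor that restrains lymphocyte signalling, was 2.92-fold lower with E29 (176 against 513) and 2.003-fold below E5, the lowest of the others. Dok3, an inhibitory adaptor of immune receptor signalling, was at the limit of the rule (1.51-fold, 349.9 against 527). Clec4n, which encodes the fungal receptor Dectin-2, and Jaml, an adhesion molecule, had E29 values within the range of the other compounds. The Clec4n values were 117 on the activated control, 42.9 to 113 with the other compounds and 75.04 with E29.

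Genes of ribosome production and RNA processing made up 8 member probes of 7 genes, and E29 was the lowest of the 12 arrays for all 8. Pes1, a factor for large ribosomal subunit maturation, read 1039 non-activated, 626 activated, 296 to 554 with the other compounds (median 425) and 154 with E29. That was 4.06-fold below the activated control and 1.92-fold below E19, the next lowest. Rpp14, an RNase P subunit, read 938, 310.5, 152 to 314 (median 259) and 87.6, a 3.54-fold difference. Rrp1b, a nucleolar protein, was 1.97-fold lower by its brighter member probe and 2.24-fold by the other, while a further, dim probe read under 50 on both arrays. Exosc1 and Exosc7, subunits of the RNA exosome, were 2.28-fold and 1.79-fold lower. Among 9 exosome probes above the floor, 4 were at least 1.5-fold lower with E29 (16.5% of all probes) and none was that much higher (16.6%). Polr1a, the largest subunit of RNA polymerase I, and Dus4l, a tRNA-modifying enzyme, were undetected with E29, with bounds of at least 1.94-fold and at least 2.30-fold. For Polr1a a second probe of the gene differed by only -0.26 log2.

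Transcription factors and cofactors gave 12 probes of 11 genes, most of them dim, with 3 probes detected on the E29 array. Irf2bpl, a member of the interferon regulatory factor 2 binding protein family, read 1644 non-activated, 483 activated, 508 to 790.2 with the other compounds (median 671) and 112 with E29, 4.29-fold below the control. All 9 other compounds read above the activated control for it, and against their median the E29 difference was -2.58 log2. A second, dim Irf2bpl probe differed by 0.05 log2 with activation and by -0.10 with E29, where it was undetected. Hhex, a homeobox factor of blood and endothelial development, read 1227, 399, 202 to 696 (median 386) and 161. Here E5, E19 and E20 (210.0, 202 and 226) lay between E29 and the remaining compounds. Ppargc1b, a coactivator of mitochondrial gene expression, read 447, 186, 116 to 317 and 39.8, undetected, at least 2.86-fold lower. Zmiz1, Nfatc1, Meis1, Zfp12, Irf2bp1 and Tle1 were also undetected with E29, with bounds from 1.36-fold to 2.14-fold. For Nfatc1 and Tle1 a second probe read -0.38 and -0.53 log2, short of the limit. Zmynd8, a reader of histone marks, was a member through 2 probes, both undetected with E29. Their E29 values, 60.7 and 64.4, lay within the ranges of the other compounds, 57.6 to 113 and 62.6 to 100.

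Plau encodes urokinase, a secreted protease that activates plasminogen. It read 2824 non-activated, 1531 activated and 331 with E29, 4.63-fold below the control. Of the other compounds, 8 read 1024 to 1373 and E33 read 369, so E29 and E33 stood together, apart from the rest.

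Genes of DNA replication and the cell cycle were few. Orc5, a subunit of the origin recognition complex, was a member through both probes, the detected one reading 451 non-activated, 174 activated, 149 to 236 with the other compounds and 74.9 with E29. Of the 3 other origin recognition complex probes above the floor, Orc4 and Orc6 were at least 1.5-fold higher with E29 and Orc3 differed by 0.47 log2. Dctd, which deaminates dCMP in nucleotide synthesis, was 2.37-fold lower (185 against 438). Bub1b, a spindle checkpoint kinase, Cdc14b, a phosphatase, Cep78, a centriole protein, and Cdk20, a cell cycle kinase, were undetected with E29, with bounds of 1.18-fold to 1.52-fold. Brighter probes outside the module were detected for Cdc14b (86.7 against 201, 2.32-fold lower) and Cdk20 (83.5 against 98.7, 1.18-fold lower). The broader cell cycle lists did not move with them. Of 33 probes for DNA replication and G1/S genes, none was lower with E29 and 14 were higher, and of 21 for G2/M genes, 1 (Bub1b) was lower and 8 were higher. By the same 1.5-fold limit, 16.5% of all probes above the floor were lower and 16.6% higher.

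Membrane traffic and the cytoskeleton contributed Rab7b, a GTPase of late endosomes that limits Toll-like receptor signalling. It read 978 non-activated and 91.1 activated, an 8.44-fold drop to the median of the activated arrays, then 95.6 to 164 with the other compounds and 34.2, undetected, with E29 (at least 1.40-fold). Cyth4, an ARF guanine nucleotide exchange factor of blood cells, read 247, 200.4, 67.6 to 132 and 13.8, undetected with E29 and at least 3.08-fold below the activated control. Its activated control was above every compound array. Wipf1 and Limk2, regulators of actin, Sec24d, a coat protein of vesicles leaving the endoplasmic reticulum, Snx24, Tgfbrap1 and Flcn completed the group. The 5 detected ones were 1.57-fold to 1.88-fold lower, and Limk2 was undetected with E29.

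Smaller groups covered glycans, lipids and mitochondria. Dolk and Dolpp1 act on dolichol, the lipid carrier of N-glycans. Dolk was 1.78-fold lower with E29 and Dolpp1, undetected, at least 1.92-fold. Extl3, a heparan sulphate synthesis enzyme, was 2.60-fold lower (218 against 566, with the other compounds at 351 to 749.7), and the sulphotransferase gene Chst3 was undetected. Hsd17b7, a cholesterol synthesis enzyme, read 2704 non-activated, 1109.8 activated and 477 with E29, and E33 (572) was again next, below the 939 to 1396 of the remaining 8. Fitm2 and Mid1ip1, both of lipid storage or synthesis, were undetected with E29. Uqcc1 and Gfer, which serve assembly and protein import in mitochondria, were 1.91-fold and 1.54-fold lower, and Fastkd1, of mitochondrial RNA metabolism, was at least 2-fold lower. Get1, an insertion factor for tail-anchored proteins, was 4.72-fold lower by the activated median (768 non-activated). With E29 it was at least 2.04-fold below the activated control. Hgh1 read 1469.5, 391.6, 391 to 644 and 120.0, a 3.26-fold difference, and Brat1 715, 266, 231 to 447 and 79.8, a 3.33-fold difference.

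Few members were on the 22 pathway lists, and 7 lists held any. The counts of lower probes below stand beside 16.5% for all probes above the floor. The list of macrophage surface receptors held 4 member probes (Tlr1, Tlr4 and Tlr13), and 30 of its 43 probes above the floor were lower with E29, with a median of -0.80 log2 beside 0.03 for all probes. Of its 43 probes only 6 were activation-repressed, so most of its lower probes were not members. The transcription factor list had 21 of 37 lower and 1 member, Hhex. The microglia identity list had no member: 4 of its 22 probes were activation-repressed, 6 were lower with E29 and 4 higher. Single members lay on the lists for G protein signalling (Gpr65, 9 of 23 lower), small GTPase signalling (Rab7b, 15 of 32), sterol synthesis (Hsd17b7, 8 of 22) and mitogen-activated kinase feedback (Dusp7, 6 of 23). Dusp7, a phosphatase of ERK, was 5.45-fold lower with activation and 1.51-fold lower with E29. The lysosome and oxidative phosphorylation lists had no lower probe of 37 and 25.

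Among the member genes, 78 of 92 genes had a RefSeq window. GC boxes (GGGCGGG, either strand) were in 35.9% of these genes, against 52.2% of the other activation-repressed genes and 52.4% of the genes of all probes above the floor. PU.1 letters (GAGGAAGT) were in 8.97%, against 5.25% and 4.01%, and CCAAT in 51.3%, against 45.4% and 43.6%. Without the 6 H2A genes CCAAT was in 47.2%. Of 12 motifs searched on both strands, the others stood in these shares of member genes and of the genes of all probes above the floor. The SMAD letters CAGACA were in 29.5% and 18.6%, the E-box CACGTG in 16.7% and 12.5%, and the TATA box in 14.1% and 9.60%. The cAMP response element TGACGTCA was in 6.41% and 3.80%, the interferon-stimulated response element in 6.41% and 3.99%, and the E2F letters in 5.13% and 0.986%. With the 6 H2A genes left out, the E2F letters were in 0% of member genes and the TATA box in 9.72%. All E2F matches of the member genes therefore lay in H2A windows, and the TATA box share was close to that of all probes. The SMAD share was also lower without the H2A genes but stayed above 18.6%. Among the other activation-repressed genes the SMAD letters were in 23.1%, close to the members' share without the H2A genes. The E-box was in 15.5% of the other activation-repressed genes, close to the members' 16.7%. The cAMP response element and the interferon-stimulated response element were in 2.62% and 2.1% of them, below the members' 6.41% for each. The AP-1 letters TGANTCA were in 3.85% and 6.84%, the forkhead letters GTAAACA in 2.56% and 3.10%, and the NF-κB motif in 0% and 0.223%.

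The activated control was above the median of the 9 other compounds for 63 members, the highest of these 10 arrays for 16 and the lowest for 5. Set against the median of the 9 other compounds, E29 was lower, with a median difference of -1.01 log2 and an interquartile range across the members of -1.39 to -0.64. By that measure 80 members were at least 1.5-fold lower (69 counted with the bounds) and 0 were higher, beside 15.5% and 15.1% of all probes above the floor. For the 552 other activation-repressed probes the same median was 0.23, with 23 lower and 166 higher. These 552 were by definition the repressed probes that did not pass the E29 limit. The rule therefore fixed much of this contrast, which is description only.

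Each of the 9 other compounds was described without the E29 and control arrays, against the median of the other 8. All 9 nevertheless entered the activated median in the rule. For 8 of the 9 compounds the members' median lay between -0.14 (E19) and 0.09 (E18). E4 had 0 members at least 1.5-fold lower and 6 higher, with 0.623% and 1.49% of all probes as background. E5 had 2 and 6 (1.07% and 1.17%), E14 had 1 and 1 (0.325% and 0.235%), and E18 had 4 and 1 (0.424% and 0.443%). E19 had 5 and 6 (1.48% and 1.81%), E20 had 5 and 4 (0.677% and 0.759%), E21 had 1 and 1 (0.271% and 0.533%) and E23 had 1 and 0 (0.235% and 0.289%). None of these 8 arrays had more than 5 members lower by that measure. Against the shared activated control the medians of these 8 ran from -0.21 (E19) to -0.02 (E14).

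E33 stood on the opposite side from E29. Its members' median was 0.36 log2 above the other 8 compounds, with an interquartile range of 0.11 to 0.54, and 0.28 above the activated control. It had 21 members at least 1.5-fold higher and 8 lower, beside 3.54% and 3.19% of all probes, and it was the highest of the 9 compounds for 55 of the 102. The other activation-repressed probes showed a similar shift, with a median of 0.25, 104 higher and 7 lower, and E33 the highest for 243 of 552. Among the higher members were Ppargc1b (317 against a median of 142 over the 9), Hhex (696 against 386), Tab1 (650.3 against 381), Nrros (930.1 against 574), Cdk20 (152 against 74.9), Cep78 (169.7 against 84.7) and Olfm1 (255 against 115). The 8 lower probes belonged to 7 genes: Plau, Slc40a1, Tlr13 with both probes, Hsd17b7, Cipc, Clec4n and Kcnk6. Their differences ran from -1.70 log2 for Plau to -0.68 for 1 Kcnk6 probe. E29 read below E33 for 6 of these 8 probes, the exceptions being Clec4n (75.04 against 42.9) and Kcnk6 (95.0 against 89.3).

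E5, E19 and E20 divided the members, a grouping taken from earlier results of these arrays. All 3 read below the 6 remaining compounds other than E29 for 18 members (17.6%, beside 3.67% of all probes above the floor and 5.62% of the other activation-repressed probes). For Hhex the mean log2 values of these 3 and of the 6 remaining compounds differed by 2.08-fold. The 18 also held Gpr65, both Rrp1b member probes, Exosc1, Exosc7, Dusp7 and Ppargc1b. The gap between the nearest arrays was 0.67 log2 for Hhex and 0.25 for Gpr65, but 0.03 for Exosc7 and 0.05 for Ppargc1b. All 3 read above the 6 others for 4 members (3.92%, beside 4.40% of all probes). By the same means these were Slc40a1 at 2.43-fold, both Tlr13 probes at 2.09-fold and 2.12-fold, and Ehbp1l1 at 1.31-fold. For Slc40a1 and Tlr13 the E5, E19 and E20 arrays were the highest of the compounds and E29 and E33 the lowest.

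Other probes of the member genes were mostly dim. Of 46 other probes for the member genes, 20 (of 16 genes) read above the floor. Among these, 6 were activation-repressed, 5 were at least 1.5-fold lower with E29 and none was 1.5-fold higher, while 6 read under 50 on both the activated control and E29 and could show no difference. Of the 8 detected with E29, 2 were at least 1.5-fold lower. Over all probes above the floor, 16.5% were that much lower and 16.6% that much higher. Near the limits of the rule, the members closest inside the E29 limit were Sephs2, Dusp7 and Dok3, each at -0.59 log2, and those just outside were Ercc4 (-0.58), Bag2 (-0.57) and Rin3 (-0.57). Just inside the activation limit were Wbp1l (-1.003), Evi2a (-1.004) and Exosc1 (-1.01), and just outside were Nipa1 (-0.999), Chchd4 (-0.997) and Map3k14 (-0.99).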

How the data were processed

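RNA from 12 cultures was measured on 12 single-colour Illumina bead arrays, 1 per condition, and grouped by the sample titles. The authors deposited a scanner table with the linear mean bead intensity of each probe and its detection p-value, per the file headers. Per the submitters' processing notes, GenomeStudio 2010.3 produced it. A second deposited table holds intensity after the authors' processing, and it was the one analysed. Its values kept the rank order of the scanner signals, had array medians of 14.9 to 15.0 and held 45.1% to 45.2% of probes at their lowest value of 10. No source used here tells how background was removed, which sets the folds of dim probes.

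Values were raised to at least 50 and taken as log2. Probe names came from the platform annotation (23978 probes with 1 gene, 0 with several, 1719 with none), of which 23962 were found in the RefSeq gene table. Members, gene lists, families and roles were chosen with earlier results of these data known. Genes were named by their E29 or activation difference, brightness, place on a list, number of probes or position at a limit, and further ones were chosen after their values were seen. With 1 array per condition no test was run, and precision is limited by how few arrays there were. Alternatives were other floors, scanner signals normalized with limma 3.58.1 in R 4.3.3 (neqc with an offset of 16, or quantile without background correction), rescaling, and other references and thresholds. Other steps used Python 3.11.15.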

Additional observations from a re-analysis of the deposited data

How the results depend on the processing

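The number of members, 102, moved with the limits and with the treatment of dim values. A floor of 25 gave 156, a floor of 100 gave 58 and quantile normalization without background correction gave 41, of which 39 were shared. An E29 limit of 2-fold gave 52 and an activation limit of 1.5-fold gave 255. The neqc values gave 113 (76 shared), rescaling 99 (97 shared), the activated median without E29 97, the activated control alone 87 (76 shared), and replacing the activated control by the median of the 10 activated arrays other than E29 102 (85 shared). Without background correction, probes lower with E29 numbered 1175 (1828 as reported), probes higher with E29 927 (1841) and activation-repressed probes 302 (654). The members' median of -1.01 log2 against the 9 other compounds became -1.25 with a floor of 25, -0.62 with a floor of 100 and -0.55 without background correction. A higher floor or an added background shrinks these differences by construction. For 51 named probes, 408 values were tried under 4 alternatives, and 130 of them moved by more than the spread used. No difference of at least 1.5-fold changed sign. With a floor of 100, probes under 100 on both the activated control and E29, Tlr4 and Gpr65 among them, had no E29 difference left. H2A probes stayed lower and H3 and H4 probes higher with E29 by their medians with both other floors, both scanner-based tables and rescaling. Dim members, chiefly the 45 undetected with E29, are limited by signal over background. No paired analysis was possible because no condition held more than 1 array.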
